A study of Mus musculus with 42 samples.

Results

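The respiratory chain of the inner mitochondrial membrane was described here through the nuclear genes that encode its subunits, in the whole left lung of 42 mice. A gene was a member if its symbol in the array annotation began with Nduf followed by a, b, c, s or v, with Uqcr, with Cox4 to Cox8 or with Atp5, or was one of Sdha to Sdhd. The rule found 87 of the 19057 genes with a single symbol, measured by 135 of the 45281 probes, and each gene was represented by its probe of highest mean signal. Of the 87 genes, 77 encode subunits and 10 match by name alone: 8 assembly factors of complex I, the supercomplex factor Cox7a2l and a pseudogene, Ndufs5-ps. The subunits divide into 34 of complex I, 4 of complex II, 7 of complex III, 16 of complex IV and 16 of complex V, with Ndufa4 counted in complex IV, where its protein is now placed.

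The lungs came from 129S2 mice with the K-rasLA1 allele, labelled as G12D mutant K-ras, a latent oncogene that spontaneous recombination activates in scattered cells so that lung tumours arise. Controls and irradiated mice alike carried it, so every comparison was made on that background, and the age of the animals is not given in the labels. The fractionated group (n = 14, 7 males and 7 females) received 5 exposures of 0.2 Gy of 56Fe particles, the acute group (n = 15, 8 males and 7 females) received 1 Gy in 1 exposure, and the control group (n = 13, 7 males and 6 females) was left unirradiated. The lungs were taken 70 days after irradiation with particles of 1 GeV per nucleon. The design sets each schedule against unirradiated lungs and the schedules against each other.

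Electrons enter the chain at complex I, the NADH dehydrogenase, or at complex II, the succinate dehydrogenase that is also an enzyme of the citric acid cycle. They pass through ubiquinone to complex III and through cytochrome c to complex IV, the cytochrome c oxidase, which reduces oxygen to water. Complexes I, III and IV pump protons, and complex V, the ATP synthase, uses the gradient. Complex IV is unusual in having subunits with tissue isoforms: Cox6a2, Cox7a1 and Cox8b are the forms of striated muscle, Cox7a1 and Cox8b are also known from brown fat, Cox4i2 is a form known from lung and its smooth muscle, and Cox6b2, Cox7b2 and Cox8c are known from testis. Lung is not among the tissues with the highest respiratory demand, and a whole lobe also holds the large pulmonary veins, whose wall in mice contains heart muscle cells.

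Promoters of members were read from RefSeq (GRCm38.p6) as windows of 300 bases, 250 before and 50 after an annotated start, and 72 of the 87 genes had at least 1 window, 77 windows in all. Letters preferred by regulators of these genes were searched on both strands: GCGCNTGCG for the nuclear respiratory factor NRF1, CCGGAAG for GABP, AAGATGGC for YY1, AAGGTCA for the oestrogen-related receptors and TATAAA for the TATA box. The windows shown pair the muscle isoform Cox7a1 with its widespread partner Cox7a2, add the muscle isoform Cox8b, and give 3 widely expressed members: Ndufb2, whose difference between fractionated and control lungs was the highest of all members, and Ndufa11 and Uqcrc1, which followed the other subunits closely across mice. Capitals mark a match to any of the letters searched. The Cox7a1 window lies at chr7:30183921-30184220 (plus strand), Cox7a2 at chr9:79759804-79760103 (minus strand), Cox8b at chr7:140900397-140900696 (minus strand), Ndufb2 at chr6:39592315-39592614 (plus strand), Ndufa11 at chr17:56717512-56717811 (plus strand) and Uqcrc1 at chr9:108936398-108936697 (plus strand).
Cox7a1: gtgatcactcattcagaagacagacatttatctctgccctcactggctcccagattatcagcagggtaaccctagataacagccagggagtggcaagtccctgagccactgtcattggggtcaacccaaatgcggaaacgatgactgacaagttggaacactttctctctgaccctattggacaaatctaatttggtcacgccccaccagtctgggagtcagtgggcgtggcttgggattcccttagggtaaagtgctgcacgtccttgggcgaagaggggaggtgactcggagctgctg
Cox7a2: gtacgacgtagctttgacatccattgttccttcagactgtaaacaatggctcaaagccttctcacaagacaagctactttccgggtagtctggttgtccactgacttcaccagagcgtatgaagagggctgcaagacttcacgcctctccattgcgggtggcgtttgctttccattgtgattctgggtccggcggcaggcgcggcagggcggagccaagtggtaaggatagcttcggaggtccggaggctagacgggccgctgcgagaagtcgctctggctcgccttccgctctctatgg
Cox8b: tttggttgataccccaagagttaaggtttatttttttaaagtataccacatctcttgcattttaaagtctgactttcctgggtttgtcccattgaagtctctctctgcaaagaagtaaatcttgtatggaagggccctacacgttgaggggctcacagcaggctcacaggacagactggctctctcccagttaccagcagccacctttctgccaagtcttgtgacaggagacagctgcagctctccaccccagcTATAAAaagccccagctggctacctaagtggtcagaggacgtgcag
Ndufb2: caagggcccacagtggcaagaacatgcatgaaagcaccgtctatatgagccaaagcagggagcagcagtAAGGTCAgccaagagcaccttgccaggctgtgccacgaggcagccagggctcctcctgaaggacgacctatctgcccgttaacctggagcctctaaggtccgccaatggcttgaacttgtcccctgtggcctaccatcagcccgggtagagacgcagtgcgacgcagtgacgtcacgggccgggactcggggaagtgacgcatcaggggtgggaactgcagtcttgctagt
Ndufa11: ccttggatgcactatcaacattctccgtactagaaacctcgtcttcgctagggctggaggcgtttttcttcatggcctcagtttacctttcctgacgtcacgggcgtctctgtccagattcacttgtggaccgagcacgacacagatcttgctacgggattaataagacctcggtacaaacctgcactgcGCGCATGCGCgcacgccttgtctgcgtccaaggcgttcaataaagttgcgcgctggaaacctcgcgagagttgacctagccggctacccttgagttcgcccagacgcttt
Uqcrc1: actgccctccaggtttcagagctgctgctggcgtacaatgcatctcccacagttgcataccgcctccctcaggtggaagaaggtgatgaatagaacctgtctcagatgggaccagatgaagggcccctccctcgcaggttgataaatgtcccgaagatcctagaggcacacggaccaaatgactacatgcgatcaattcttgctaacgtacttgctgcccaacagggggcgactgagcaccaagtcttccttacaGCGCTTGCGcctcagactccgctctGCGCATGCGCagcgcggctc

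Counting from the 5′ end of each window, the Uqcrc1 promoter held the NRF1 letters at bases 256 to 264 and again within bases 281 to 290, and Ndufa11 held them within bases 191 to 200, in 2 overlapping matches. The Ndufb2 window held the letters of the oestrogen-related receptors at bases 70 to 76. Cox8b held TATAAA at bases 255 to 260, which lie after the annotated start of that window. None of the letters searched was found in the Cox7a1 or Cox7a2 window, which says only that these letters are absent there. The dinucleotide CG occurred 7 times in the Cox7a1 window, 20 times in that of Cox7a2 and 2 times in that of Cox8b.

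Over all windows of members, the NRF1 letters were found in 33.8% of 77, against 6.31% of the 32851 promoter windows of all genes. With a C required after them, the shares were 24.7% of member windows and 4.6% of all windows. The GABP letters were found in 23.4% of member windows and 8.86% of all windows, and the YY1 letters in 14.3% of member windows and 2.75% of all windows. For the oestrogen-related receptors the shares were 9.09% of member windows and 4.72% of all windows, and for TATAAA 11.7% of member windows and 13.6% of all windows. Member windows held a median of 20 CG and all windows a median of 7, and the NRF1 letters contain CG themselves. Among windows with at least 15 CG, 39.3% of 61 member windows and 16.2% of 11378 windows of all genes held the NRF1 letters, and for GABP the shares were 26.2% of member windows and 18.9% of all such windows. By complex, the NRF1 letters were found in 9 of 33 windows of complex I, 2 of 3 of complex II, 3 of 5 of complex III, 1 of 11 of complex IV and 9 of 17 of complex V. The 4 windows of tissue isoforms held a median of 8.5 CG and no match for NRF1, GABP, YY1 or the oestrogen-related receptors. No GABP match overlapped a YY1 match in a member window, although 2 windows held both.

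Most members were detected throughout. Testing required detection (p under 0.01) on 13 or more of the 42 arrays, which 80 of the 87 genes and 71 of the 77 subunits met, and 77 of the 80 were detected on every array. The exceptions among the tested genes were Atp5k, detected on 13 arrays, Cox7b on 19 and Ndufb4 on 31. Those not tested were Atp5md, detected on 4 arrays, Uqcrfs1, the Rieske iron-sulfur subunit of complex III, on 2, and Ndufs1, Sdha, Cox7b2, Cox8c and the assembly factor Ndufaf6, on 0. Sdha, Ndufs1 and Uqcrfs1 encode subunits that their complexes need in every tissue, and their levels were not analysed here. The tested genes were 33 genes of complex I, 3 of complex II, 6 of complex III, 14 of complex IV and 15 of complex V.

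Each lung was measured on 1 array, with 16264 to 18289 probes detected, and the arrays lay on 8 slides, 7 of which held all groups and 1 a single fractionated male. The lung genes Sftpc, Scgb1a1 and Ager were detected on all 42 arrays. Fractionated replicate 13, a female, stood apart: its correlation with the median profile of all 42 arrays was 0.8659, against 0.9618 to 0.9915 for the other 41. Its level of 3 tested T cell markers, Cd3e, Cd3g and Cd8b1, was 3.28 log2 units above the mean of all arrays and that of proliferation markers 3.89, while no other fractionated lung exceeded 0.27 and 0.89. Thymocyte genes of the same list, such as Rag1 and Dntt, detected on 1 array each, did not enter that level. The same lung had the lowest level of all 42 for markers of alveolar type 1 cells (-1.54), alveolar type 2 cells (-0.74), club cells (-1.6), ciliated cells (-1.55), endothelium (-1.86), smooth muscle and pericytes (-1.06), red cells (-2.79), heart muscle (-3.33) and fat (-2.33). The design text counts 13 fractionated mice although 14 arrays carry the label, and the column of replicate 13 is empty in the deposited value table. Results below are given with it, and without it where it moves them.

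No member passed the test in either comparison with control. In the fractionated lungs 0 of the 80 tested members passed an adjusted p of 0.05 against control (limma, Benjamini-Hochberg over 17927 probes; percentage of all probes called 0), and the smallest adjusted p of a member was 0.934. The median difference of the members was 0.078 on the log2 scale and 70 of 80 lay above control, while over all probes the median was -0.004 and 48.8% lay above. At an unadjusted p under 0.05 there were 5 members, all of them above control, against 4.37% of all probes in either direction and 2.1% above control. Without fractionated replicate 13, 63 members lay above control and 17 below, and 3 had an unadjusted p under 0.05. The 95% confidence interval of a member reached a median of 0.151 to either side.

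In acute lungs the members were split nearly evenly about control. Against control, 0 of 80 members were called (percentage of all probes called 0), 42 lay above and 38 below, and the median difference was 0.006, against 0.007 over all probes. A single member, Uqcr11, had an unadjusted p under 0.05, against 1.41% of all probes in either direction and 0.787% above control. Median scaling in place of background correction and quantile normalization moved this split: 75 members then lay above control and 5 below, with 74.6% of all probes above where the quantile-normalized values had 53.3%. Under that scaling the fractionated lungs had 71 members above control and 9 below, with 43.4% of all probes above.

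**Figure D1:**
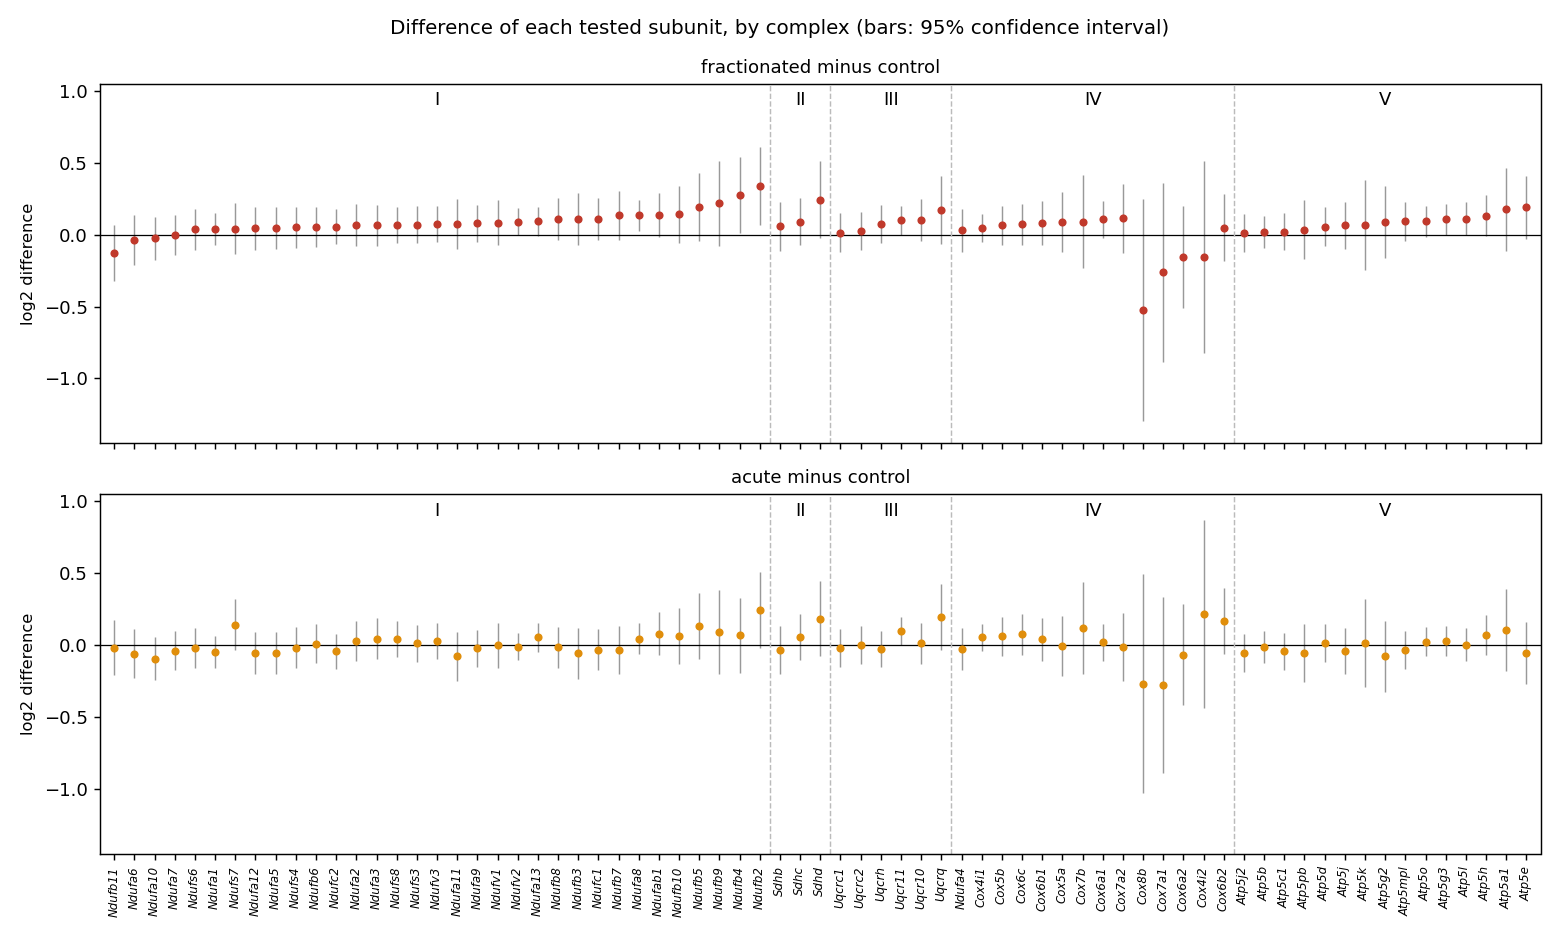
Difference of log2 signal for each of the 71 tested subunits, ordered by complex and, within complex IV, with the 5 tissue isoforms last; the upper panel shows fractionated minus control and the lower panel acute minus control, points are fitted differences and bars 95% confidence intervals. Most points of the upper panel lie a little above 0 with intervals that include it, and Cox7a1 and Cox8b have the lowest values and wide intervals in both panels.

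Complex I carries the flavin and iron-sulfur core that oxidises NADH, surrounded by accessory subunits that stabilise it. In fractionated lungs its 33 tested genes had a median difference of 0.074 from control, 29 above and 4 below, and in acute lungs the median was -0.011, with 15 above and 18 below. The 5 tested core genes had a median of 0.068 in fractionated lungs and the 28 accessory genes 0.075.

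Ndufb2, an accessory subunit of the membrane arm, ranged from 7.11 to 8.63 in fractionated lungs (median 7.62), from 6.82 to 8 in acute lungs (median 7.6) and from 6.64 to 7.7 in control lungs (median 7.31), in log2 signal. The groups overlap, with fractionated replicate 14 highest and control replicate 5 lowest. The difference from control was 0.34 (SE 0.13, unadjusted p = 0.0146, adjusted p = 0.934) in fractionated lungs and 0.25 (SE 0.13, unadjusted p = 0.0662) in acute lungs. Compared within slides and without fractionated replicate 13, the fractionated mean of Ndufb2 lay above the control mean on 7 of 7 slides, by 0.184 to 0.435, and the acute mean on 5 of 7. These slide means were not adjusted for sex. On slide 5, fractionated replicate 9, a female, is set against control replicate 9, a male. Ndufb2 had the highest difference of all members in these same lungs, so the slide counts are not separate support.

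Ndufa8, an accessory subunit with disulfide-bonded helices, had values of 11.5 to 12.03 in fractionated lungs (median 11.72), 11.5 to 11.86 in acute lungs (median 11.7) and 11.5 to 11.79 in control lungs (median 11.65). All 3 ranges start at the same value, and the fractionated group reaches highest. Its difference between fractionated and control lungs was 0.14 (SE 0.053, unadjusted p = 0.0152, adjusted p = 0.934), above control on 5 of 7 slides. A second probe of Ndufa8 gave 0.041 for the same difference.

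Ndufb4, another accessory subunit of the membrane arm, ranged from 5.63 to 6.8 in fractionated lungs (median 6.1), from 5.31 to 6.44 in acute lungs (median 5.9) and from 5.3 to 6.37 in control lungs (median 5.9). These are dim values, and the probe was detected in 11 of the 14 fractionated, 11 of the 15 acute and 9 of the 13 control lungs. The difference between fractionated and control lungs was 0.27 (unadjusted p = 0.044, adjusted p = 0.934). Ndufaf4, an assembly factor of complex I, differed by 0.22 (SE 0.097, unadjusted p = 0.0306, adjusted p = 0.934) in the same comparison, with unadjusted p = 0.0613 without replicate 13.

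The genes of complex I differed in how much they varied among mice. Ndufv2, an iron-sulfur subunit of the NADH-oxidising module, had the smallest SD of its complex over the 42 mice, 0.113, and Ndufb9 the largest, 0.386. Ndufv2 lay between 12.08 and 12.65 in fractionated lungs, between 12.07 and 12.4 in acute lungs and between 12.1 and 12.4 in control lungs, with fractionated replicate 13 highest. Ndufs7, the iron-sulfur subunit next to the ubiquinone site, differed from control by 0.042 (SE 0.089) in fractionated lungs and by 0.14 (SE 0.088, unadjusted p = 0.116) in acute lungs. Ndufb9, an accessory subunit, differed from control by 0.22 (SE 0.15) and 0.09 (SE 0.14), fractionated lungs first, and by 0.14 (SE 0.14) in fractionated lungs without replicate 13. Of the X-linked genes Ndufa1 and Ndufb11, the differences between fractionated and control lungs were 0.039 (SE 0.055) and -0.13 (SE 0.097). A second, dimmer probe of Ndufb11 gave 0.135 for the same difference.

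Complex II is encoded entirely by nuclear genes: Sdha and Sdhb form the catalytic part, and Sdhc and Sdhd anchor it in the membrane. Sdhd ranged from 6.7 to 8.61 in fractionated lungs (median 7.4), from 7.03 to 7.74 in acute lungs (median 7.42) and from 6.68 to 7.86 in control lungs (median 7.1). The fractionated group spans the ranges of both others, and replicate 14 is its highest lung. Its differences from control were 0.24 (SE 0.13, unadjusted p = 0.073) in fractionated lungs and 0.19 (SE 0.13, unadjusted p = 0.163) in acute lungs. For Sdhb the differences were 0.058 (SE 0.084; 0.035 without replicate 13) and -0.032 (SE 0.083), and for Sdhc 0.091 (SE 0.08) and 0.058 (SE 0.079), fractionated lungs first.

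Complex III passes electrons from ubiquinol to cytochrome c. Its 6 tested genes, none of which carries a redox centre, all lay above control in fractionated lungs, with a median of 0.087, and 4 of 6 in acute lungs, with a median of 0.007. Without replicate 13, 4 of 6 lay above control in fractionated lungs, with a median of 0.061. Uqcr11, its smallest accessory subunit, ranged from 12.9 to 13.25 in fractionated lungs (median 13.05), from 12.88 to 13.31 in acute lungs (median 13.05) and from 12.64 to 13.27 in control lungs (median 12.99). The upper ends of the 3 groups coincide, and the control group extends further down. The difference was 0.1 in each comparison with control (SE 0.05, unadjusted p = 0.049 in fractionated lungs, and SE 0.049, unadjusted p = 0.0469 in acute lungs), with adjusted p = 0.934 and 1, and both comparisons share the control lungs. Uqcrq, the ubiquinone-binding accessory subunit, differed by 0.17 (SE 0.12) in fractionated lungs and by 0.2 (SE 0.11) in acute lungs, with unadjusted p = 0.148 and 0.0967. Without replicate 13 the unadjusted p of Uqcr11 in fractionated lungs was 0.0894, and the difference of Uqcrq was 0.1 (SE 0.1).

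In complex IV the widespread subunits and the tissue isoforms are given apart. Its 9 widespread genes all lay above control in fractionated lungs, with a median of 0.08, and 6 of 9 in acute lungs, with a median of 0.041. The 5 tested tissue isoforms had a median of -0.155 in fractionated lungs, with 1 above control and 4 below, and -0.066 in acute lungs, with 2 above and 3 below. No member of either kind passed even an unadjusted p of 0.05. Among the widespread genes, Cox4i1, the regulatory subunit that most tissues use, differed by 0.047 (SE 0.048) in fractionated lungs and 0.054 (SE 0.047) in acute lungs, Cox6a1 by 0.11 (SE 0.065) and 0.02 (SE 0.064), and Cox6b1 by 0.08 (SE 0.076) and 0.041 (SE 0.075). For Cox7a2 the values were 0.12 (SE 0.12) and -0.011 (SE 0.12), and for Ndufa4 0.03 (SE 0.074) and -0.029 (SE 0.072). Without replicate 13 the fractionated values of Cox4i1 and Cox6b1 were 0.021 (SE 0.043) and 0.053 (SE 0.074).

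The tissue isoforms had wider spreads. Cox8b ranged from 6.44 to 10.74 in fractionated lungs (median 8.83), from 7.27 to 10.22 in acute lungs (median 9.35) and from 7.92 to 11.09 in control lungs (median 9.2), and Cox7a1 from 7.22 to 11.22 in fractionated lungs (median 9), from 7.9 to 10.23 in acute lungs (median 9.43) and from 8.48 to 11.19 in control lungs (median 9.32). The groups overlap widely for both genes, and fractionated replicate 13 is the lowest lung of each. The differences from control of Cox8b were -0.52 (SE 0.38) in fractionated lungs and -0.27 (SE 0.38) in acute lungs, and those of Cox7a1 -0.26 (SE 0.31) and -0.28 (SE 0.3). For Cox6a2 they were -0.16 (SE 0.18) and -0.066 (SE 0.17), for Cox4i2 -0.15 (SE 0.33) and 0.22 (SE 0.33), and for Cox6b2 0.049 (SE 0.12) and 0.17 (SE 0.11). Leaving out replicate 13 moved the fractionated values to -0.14 (SE 0.3) for Cox7a1, -0.019 (SE 0.32) for Cox4i2, -0.088 (SE 0.17) for Cox6a2 and 0.11 (SE 0.11) for Cox6b2, and the median of the 5 isoforms to -0.088. Cox8b stood at 6.44 in that lung, against 6.74 to 11.09 in the other 41. Its fractionated mean, and with it the difference of -0.52, is therefore also pulled down by replicate 13.

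Complex V couples the proton gradient to ATP synthesis, with a catalytic F1 head, a membrane Fo part that holds the ring of c subunits, and a stalk that joins them. By their brightest probes, all 15 tested genes lay above control in fractionated lungs, with a median of 0.087 and a range of 0.009 to 0.191, and 7 of 15 in acute lungs, with a median of -0.012. Second probes of Atp5a1 and Atp5j gave -0.073 and -0.056 for fractionated minus control. Those of Atp5l, Atp5o and Atp5pb gave 0.043, 0.089 and 0.051. Without fractionated replicate 13, 10 of 15 lay above control and 5 below in fractionated lungs, with a median of 0.064. Of these 15, 0 had an unadjusted p under 0.05 in either comparison. By position the medians in fractionated lungs were 0.056 for the 5 genes of F1, 0.089 for the 6 of Fo and 0.079 for the 4 of the stalk. Of the genes for the c subunit, Atp5g3 differed by 0.11 (SE 0.053, unadjusted p = 0.0522) in fractionated lungs and 0.03 (SE 0.052) in acute lungs, and Atp5g2 by 0.087 (SE 0.12) and -0.078 (SE 0.12), with 0.003 (SE 0.11) in fractionated lungs once replicate 13 was left out. Atp5l, subunit g of the Fo part, differed by 0.11 (SE 0.057, unadjusted p = 0.0634) in fractionated lungs, and Atp5h, the stalk subunit d, by 0.13 (SE 0.07, unadjusted p = 0.0656). Atp5j2, subunit f, differed by 0.009 (SE 0.066) in fractionated lungs and -0.055 (SE 0.065) in acute lungs.

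The same total dose given in 5 parts or at once was compared directly. Against acute lungs, 0 of 80 members were called in fractionated lungs (percentage of all probes called 0), with a median difference of 0.064, 70 members above and 10 below, and -0.013 over all probes, of which 45.4% lay above. Under median scaling the split was 44 above and 36 below, with 21.9% of all probes above, and without fractionated replicate 13 it was 63 and 17. At an unadjusted p under 0.05 there were 4 members, all above acute, against 2.08% of all probes in either direction and 0.954% above acute, and there were 0 such members without replicate 13.

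Atp5e, the epsilon subunit of the central stalk counted here with F1, had the largest of these differences. It lay between 6.01 and 7.07 in fractionated lungs (median 6.47), between 5.75 and 6.79 in acute lungs (median 6.29) and between 5.95 and 6.71 in control lungs (median 6.37). The groups overlap, and replicate 13 is the highest lung. The difference of fractionated from acute lungs was 0.25 (SE 0.1, unadjusted p = 0.0234, adjusted p = 1), and on 6 of 7 slides it had the same direction. Ndufv2 differed by 0.1 (SE 0.046, unadjusted p = 0.0298), Ndufb7 by 0.17 (SE 0.082, unadjusted p = 0.0464) and Ndufc1 by 0.14 (unadjusted p = 0.0464), each with adjusted p = 1. In complex III the differences of smallest p were those of Uqcrh, the hinge protein, at 0.1 (SE 0.062), and Uqcr10, at 0.09 (SE 0.07), or 0.048 (SE 0.062) without replicate 13.

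The level of a complex in a mouse was taken as the mean deviation of its tested genes from their averages over the 42 arrays, a description to which no test was applied. For complex I it averaged 0.052 ± 0.118 in fractionated lungs, -0.021 ± 0.062 in acute lungs and -0.032 ± 0.114 in control lungs (SD, n = 14, 15 and 13). For complex V it averaged 0.058 ± 0.165, -0.033 ± 0.058 and -0.025 ± 0.084 in the same order of groups. In both complexes the distance between the fractionated mean and the others was smaller than the SD of the fractionated group, though larger than that of the acute group, whose lungs varied least. Without fractionated replicate 13 the fractionated lungs averaged 0.031 ± 0.09 for complex I and 0.022 ± 0.102 for complex V. The distance from the acute mean was then smaller than the SD of the acute group in both complexes. Complex II averaged 0.06 ± 0.205 in fractionated, 0.002 ± 0.1 in acute and -0.068 ± 0.118 in control lungs, and complex III 0.038 ± 0.15, 0.001 ± 0.074 and -0.043 ± 0.096.

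**Figure D2:**
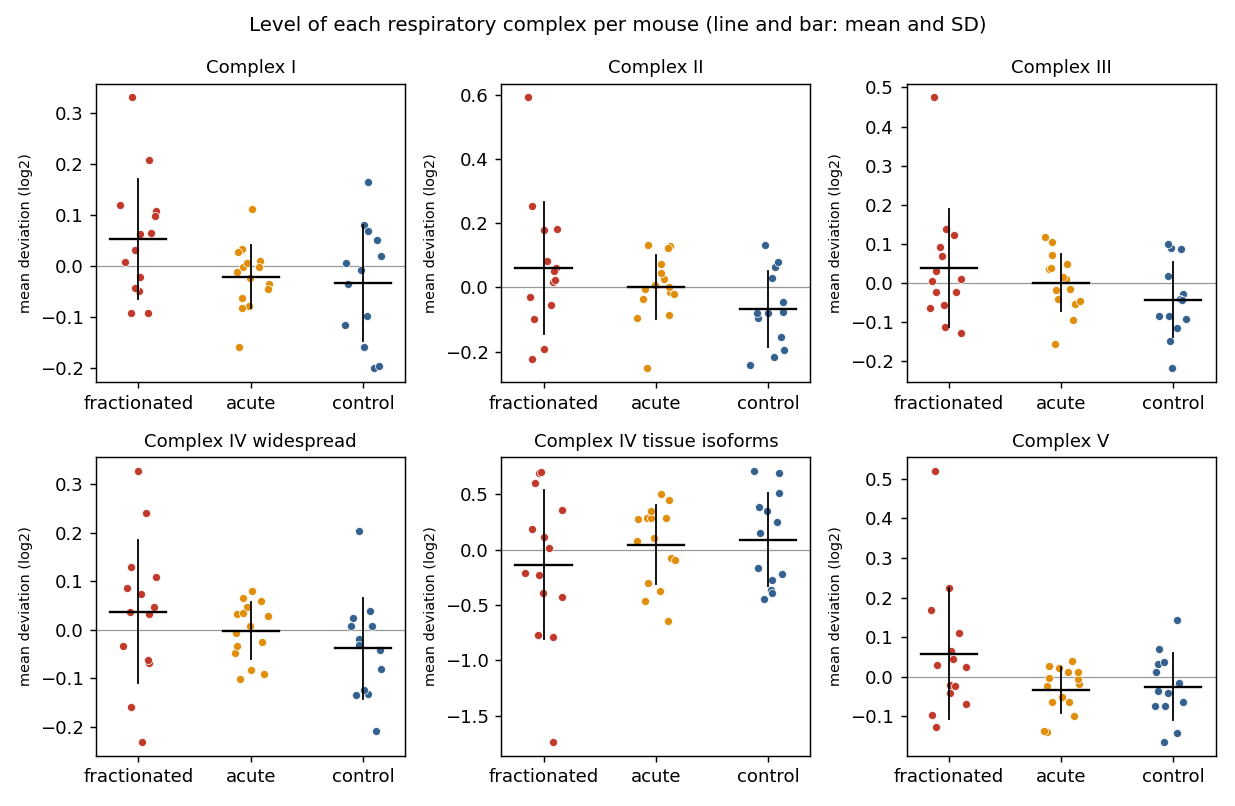
Level of each complex per mouse, as the mean deviation of its tested genes from their averages over 42 arrays in log2 units, with complex IV shown as its 9 widespread genes and its 5 tissue isoforms; each point is a lung, horizontal lines are group means and vertical bars 1 SD. The groups overlap in every panel, and 1 fractionated lung has the highest level of complexes I, III and V and the lowest of the tissue isoforms, 0.33, 0.48, 0.52 and -1.74.

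Those extreme values belong to fractionated replicate 13. Of the tested genes, 12 of 33 in complex I, 3 of 6 in complex III and 10 of 15 in complex V had their highest signal of all 42 arrays in that lung, and 5 of 14 in complex IV, while 4 others of complex IV had their lowest there. Atp5g2 stood at 11.86 in that lung, against 9.94 to 11.23 in the other 41, and Cox7a1 at 7.22, against 7.9 to 11.22. Without it the fractionated means were 0.031 for complex I, 0.046 for complex II, 0.005 for complex III and 0.022 for complex V. That lung also had the highest T cell and proliferation marker levels and the lowest levels of alveolar, airway and endothelial markers, and their part in these values was not tested. Fractionated replicate 14, alone on its slide, had the highest level of complex II, 0.59, and of the widespread genes of complex IV, 0.33.

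Comparisons within the 7 shared slides, made without replicate 13, gave mixed directions. The slide means were not adjusted for sex, and some are the value of a single lung. The fractionated mean lay above the control mean on 5 of 7 slides for complex I (-0.045 to 0.167), on 6 for complex II (-0.012 to 0.191), on 5 for complex III (-0.022 to 0.144) and on 5 for complex V (-0.079 to 0.219). For the widespread genes of complex IV it did so on 4 of 7 and for the tissue isoforms on 3 of 7 (-0.512 to 0.319). The acute mean lay above the control mean on 4 slides for complex I and on 3 for complex V.

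Slide accounted for much of the variation of the subunits. Without fractionated replicate 13, the share of variance between slides had a median of 45.3% in complex I, 72.9% in complex II and 46.1% in complex III. It was 42.6% in complex IV and 46.2% in complex V, against 34.1% over all tested genes. Fractionated replicate 14 is alone on its slide, so its deviation counts in full as variance between slides. That lung had the highest level of complex II, 0.59. Cox4i2 had 78.5%: it lay between 8.3 and 9.94 on the 17 arrays of slides 3 to 5 (median 9.22) and between 6.37 and 8.61 on the 25 arrays of the other slides (median 7.88). These ranges, which include replicate 13, overlap only between 8.3 and 8.61. Without that lung, the mean of Cox4i2 was 1.48 higher on slides 3 to 5 on the log2 scale, and the differences that follow also leave it out. Ndufs7 was also higher on slides 3 to 5, by 0.386, while Cox6b1 was lower there, by -0.297, as were Sdhc, by -0.304, and Ndufa11, by -0.351. The tissue handling or hybridisation behind a slide is not given in the labels, and its part in these values was not tested.

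**Figure D3:**
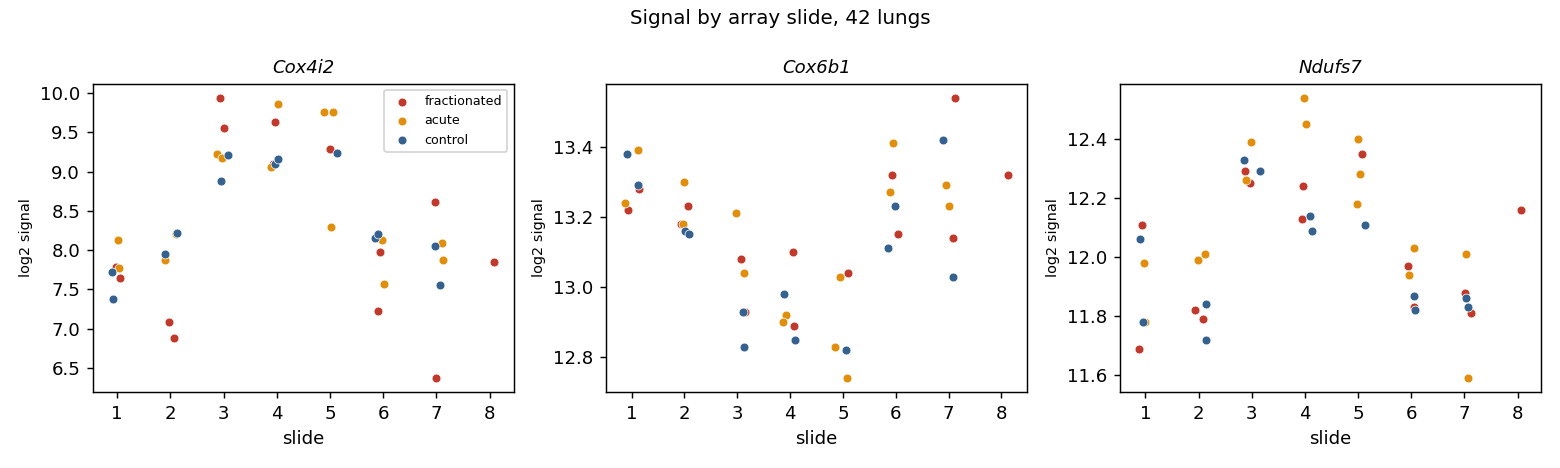
Log2 signal of Cox4i2, Cox6b1 and Ndufs7 in 42 lungs by array slide, 1 point per lung, coloured by fractionated, acute and control group. Cox4i2 and Ndufs7 are high and Cox6b1 is low on slides 3 to 5 in every group, so the groups, which are spread over slides 1 to 7, mix within each level.

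With slide as a term in the fit, 0 members were called in the comparisons between groups. The number with an unadjusted p under 0.05 was then 12 of 80 in fractionated against control lungs, where 6.6% of all probes had such a p in that fit. It was 5 of 80 in acute against control lungs, with 2.28% of all probes, and 7 of 80 in fractionated against acute lungs, with 3.11% of all probes. Members above control numbered 68 of 80 in fractionated lungs, with 49% of all probes, and 45 of 80 in acute lungs, with 52.8% of all probes.

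Across mice, the subunits moved together weakly. With each slide centred and replicate 13 left out (41 mice), the median Pearson correlation between 2 genes was 0.232 within complex I, 0.074 within complex II, -0.006 within complex III, 0.156 within complex IV and 0.206 within complex V, and 0.002 over pairs of all tested genes. Pairs from different complexes had similar values, such as 0.22 between complexes I and V and 0.19 between I and III. These arrays share labelling, slide and normalization, and the values are a description. Against the mean of all other subunits, the highest correlations were those of Uqcrc1 (0.725), a core-like protein of complex III, Cox5b (0.7), Atp5o (0.697), the stalk subunit that confers sensitivity to oligomycin, Ndufv2 (0.692) and Ndufa11 (0.674). The lowest were those of Uqcrq (-0.363), Cox4i2 (-0.158), Cox6b2 (-0.125) and Ndufb11 (-0.092).

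The muscle isoforms Cox7a1 and Cox8b followed heart muscle markers. Over the 42 lungs, Cox7a1 had a Pearson correlation of 0.95 and a Spearman correlation of 0.95 with the level of 13 heart muscle markers, and Cox8b had 0.94 and 0.94 (permutation test with 100000 draws, p = 1e-05 each, the smallest these draws can give, adjusted p = 6.75e-05 for Pearson and 4.5e-05 for Spearman over 27 pairs of 9 genes and 3 lists). Leaving out the 2 lungs farthest from the median marker level gave 0.93 for each gene. Within single slides the correlation lay between 0.76 and 0.99 for Cox7a1 and between 0.68 and 1 for Cox8b, and with slides centred it was 0.96 and 0.95. It was 0.95 and 0.94 within the 22 males and 0.92 and 0.92 within the 20 females. Fewer muscle cells in a lobe and less of these RNAs per cell cannot be told apart in whole tissue.

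**Figure D4:**
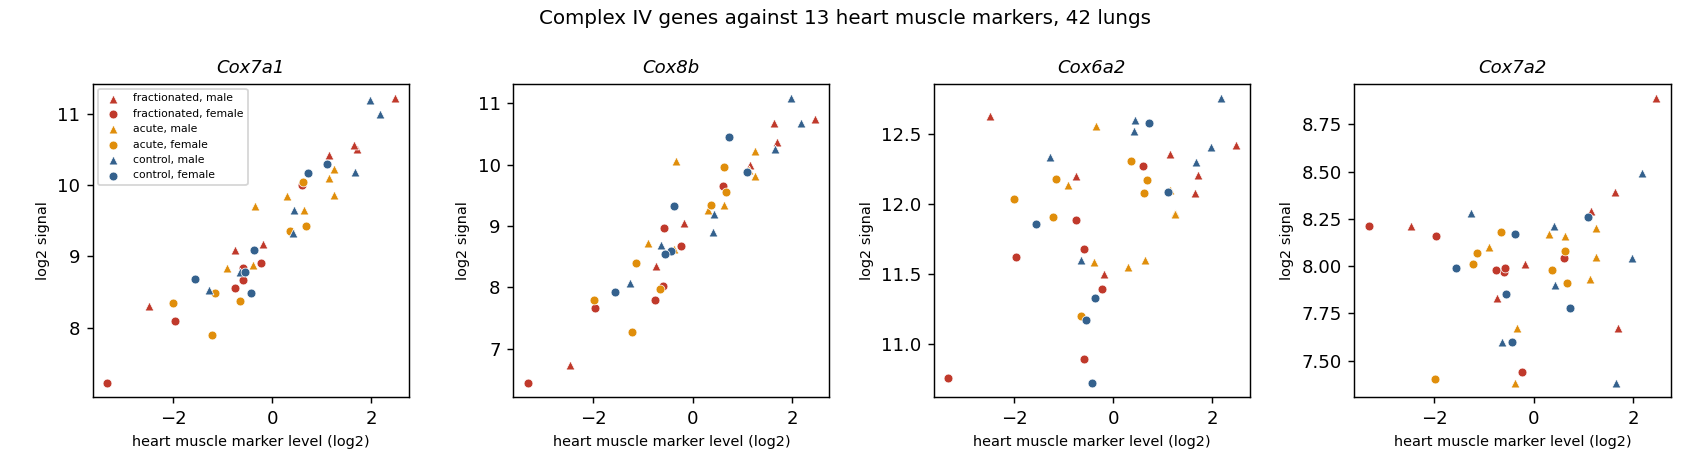
Log2 signal of Cox7a1, Cox8b, Cox6a2 and Cox7a2 (vertical axes) against the mean deviation of 13 heart muscle markers in log2 units (horizontal axes) in 42 lungs, with triangles for males and circles for females and colours for fractionated, acute and control lungs. Cox7a1 and Cox8b rise along a line with the markers, with correlations of 0.95 and 0.94, and Cox6a2 scatters widely, with 0.43.

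The markers themselves varied strongly. Their level ranged from -3.33 to 2.47 in fractionated lungs, from -1.99 to 1.26 in acute lungs and from -1.56 to 2.18 in control lungs, and all 13 of the 14 listed genes that were named on the array were tested. Myl4, Actc1, Myh6 and Fabp3 were detected on all 42 arrays, while the atrial hormone gene Nppa was detected on 15, Mybpc3 on 15 and Pln on 17. In fractionated lungs 13 of 13 lay below control, with a median of -0.578 and 0 called, and 51.2% of all probes lay below. Without replicate 13, whose marker level was -3.33, the median was -0.324, again with 13 of 13 below. In acute lungs 13 of 13 lay below control, with a median of -0.253 and 0 called, and 46.7% of all probes lay below. Their part in the differences of Cox7a1 and Cox8b from control was not tested.

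Fat markers also moved with these isoforms. The correlation with 4 tested markers of brown and white fat was 0.76 for Cox7a1 and 0.83 for Cox8b (permutation p = 1e-05, adjusted p = 6.75e-05 for each), and 0.84 and 0.87 without the 2 farthest lungs. Ucp1, the uncoupling protein that defines brown fat, was detected on 5 arrays. With the 4 tested skeletal muscle markers the Pearson correlation was 0.39 for Cox7a1 (adjusted p = 0.0265) and 0.44 for Cox8b (adjusted p = 0.0109), and the Spearman correlations were 0.72 and 0.69. Acute replicate 7 had the highest level of these markers, 4.95, and the next lung, control replicate 2, had 0.8. Within males the Pearson correlations were 0.31 and 0.44, and the Spearman correlations 0.76 and 0.82. Within females the Pearson correlations were 0.41 and 0.31, and the Spearman correlations 0.4 and 0.35. Of these, only the Spearman correlations within males passed an adjusted p of 0.05.

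The values for Cox6a2, the third muscle isoform, were lower, a difference that was not tested. Its correlation with the heart muscle markers was 0.43 (permutation p = 0.00523, adjusted p = 0.0235), 0.45 with slides centred (adjusted p = 0.0162), 0.3 without the 2 farthest lungs and 0.33 without fractionated replicate 13 (permutation p = 0.0374, adjusted p = 0.112). Within slides it ranged from -0.67 to 0.92. With the fat markers it was 0.4 (adjusted p = 0.0291), 0.47 without the 2 farthest lungs, 0.34 without replicate 13 (adjusted p = 0.103) and 0.42 with slides centred (adjusted p = 0.0208). With the skeletal muscle markers it was 0.3 (adjusted p = 0.151), and 0.42 with slides centred (adjusted p = 0.025). For the 6 other complex IV genes examined, the 18 Pearson correlations with the 3 lists lay between -0.3 and 0.24, with permutation p of 0.0559 or more, and the smallest Spearman p was that of Cox6b2 with the skeletal muscle markers (-0.33, permutation p = 0.0339, adjusted p = 0.0915). With slides centred, Cox4i2 had 0.5 with the heart muscle markers (adjusted p = 0.00572; Spearman 0.3, adjusted p = 0.141), or 0.34 without the 2 farthest lungs. Cox4i1 then had 0.44 with the skeletal muscle markers (adjusted p = 0.025; Spearman 0.24, adjusted p = 0.238), or 0.15 without the 2 farthest lungs. Among themselves, over 41 lungs without fractionated replicate 13 and with slides not centred, Cox7a1 and Cox8b had a correlation of 0.95. Cox7a1 and Cox6a2 had 0.48, and Cox4i2 and Cox6b2 -0.6. In those lungs Cox4i2 was higher on slides 3 to 5, by 1.475, and Cox6b2 lower, by -0.317. The part of slide in that correlation was not tested.

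Of 10216 genes outside the family, those most like Cox7a1 across 41 slide-centred lungs were Eef1a2, an elongation factor of muscle and neurons (0.958), Myoz2, a protein of the Z-disc (0.956), and Ckmt2, the mitochondrial creatine kinase of sarcomeres (0.948), which is also one of the heart muscle markers. Those most like Cox8b were Mb, the oxygen-binding myoglobin (0.955), Eef1a2 (0.947) and Ckmt2 (0.942). Nearest to Cox4i2 were Nhsl2 (0.844), Armcx3 (0.832) and Tead1 (0.825), nearest to Cox6a2 were Nudt8 (0.807), Mrpl54 (0.74) and Rnf225 (0.725), and nearest to Cox6b2 were Egr2 (0.665), Havcr2 (0.658) and Slamf9 (0.655).

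Cox7a1 was the 1 member that differed between the sexes at an adjusted p under 0.05. It lay between 8.3 and 11.22 in the 22 males (median 9.78) and between 7.22 and 10.29 in the 20 females (median 8.73), so the ranges overlap over most of their length. It was higher in males by 0.89 (SE 0.25, limma adjusted p = 0.04995), against 1.77% of all probes called, and its males averaged higher than its females on 7 of 7 slides, by 0.338 to 1.38, without replicate 13. That p is at the threshold: it was between 0.0311 and 0.108 over the alternatives tried, and 0.0624 with replicate 13 left out. All 13 heart muscle markers lay higher in males, with a median difference of 1 and each with an unadjusted p under 0.05, of which Mybpc3 was called (0.94, adjusted p = 0.0362). Their level averaged 0.51 ± 1.27 in males and -0.56 ± 1.11 in females (SD, n = 22 and 20), and their part in the difference of Cox7a1 was not tested.

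**Figure D5:**
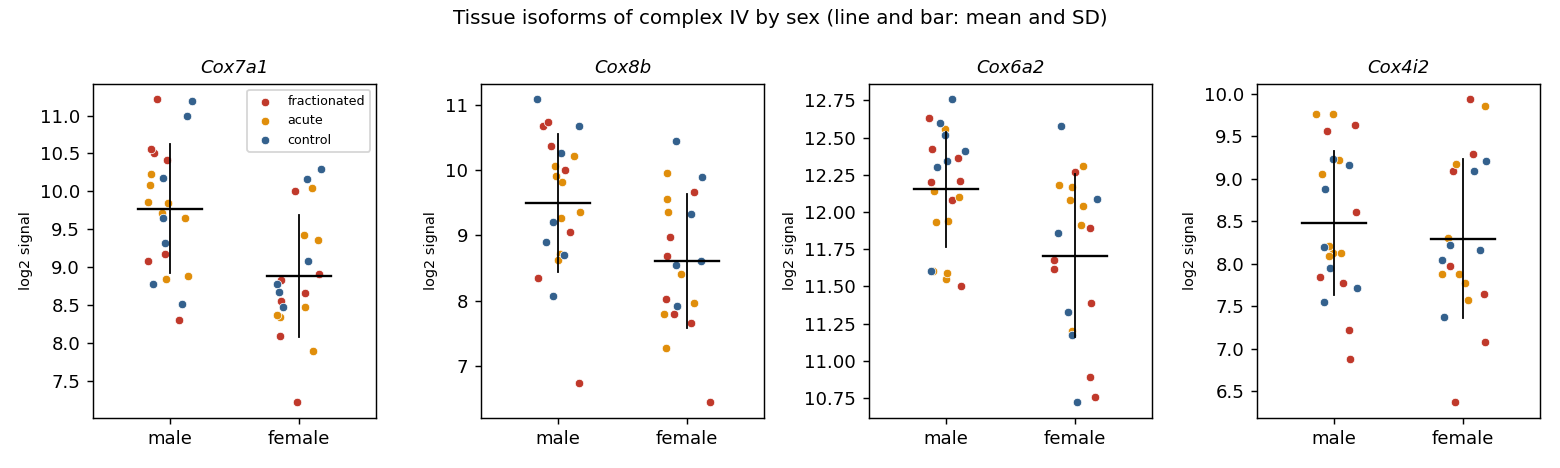
Log2 signal of Cox7a1, Cox8b, Cox6a2 and Cox4i2 in 22 males and 20 females, 1 point per lung coloured by fractionated, acute and control group, with horizontal lines for the mean and vertical bars for 1 SD. The males average higher for the first 3 genes, by 0.89, 0.87 and 0.44, with overlapping points.

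Cox8b lay between 6.74 and 11.09 in males (median 9.58) and between 6.44 and 10.45 in females (median 8.57), a difference of 0.87 (SE 0.31, adjusted p = 0.13). Cox6a2 lay between 11.5 and 12.76 in males (median 12.2) and between 10.72 and 12.58 in females (median 11.88), a difference of 0.44 (SE 0.14, adjusted p = 0.0944). Of the 80 members 60 lay higher in males, against 48.7% of all probes. In all, 6 members had an unadjusted p under 0.05, all with males higher, against 8.93% of all probes with males higher at that p. The others were Uqcr11 (0.09, adjusted p = 0.232), Ndufa13 (0.085, adjusted p = 0.27) and the pseudogene Ndufs5-ps (0.14, adjusted p = 0.263). The X-linked Ndufa1, Ndufb11 and Cox7b differed by 0.042 (SE 0.044), -0.052 (SE 0.078) and 0.096 (SE 0.13), male minus female. The second probe of Ndufb11 gave 0.083.

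The response to irradiation was also compared between the sexes. For the interaction of sex with fractionated irradiation 0 members were called (percentage of all probes called 0) and 0 had an unadjusted p under 0.05, against 2.57% of all probes. For sex with acute irradiation 0 members were called (percentage of all probes called 0) and 1, Cox6a2, had an unadjusted p under 0.05 (-0.79, unadjusted p = 0.0199, adjusted p = 1), against 2.06% of all probes.

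Other genes of the pathway gave no call between groups either, and 48.8% of all probes lay above control in fractionated lungs and 53.3% in acute lungs. Of 12 tested regulators of respiratory genes, 10 lay above control in fractionated lungs with a median of 0.11, led by Tfb1m, a mitochondrial rRNA methyltransferase (0.19, SE 0.094, unadjusted p = 0.0467), and Pprc1, a coactivator (0.18, SE 0.14), and 7 in acute lungs, with a median of 0.064. Of 36 assembly factors, a list that includes the Ndufaf members, 26 lay above control in fractionated lungs with a median of 0.075, led by Cox10, which makes haem O for complex IV (0.2, SE 0.064, unadjusted p = 0.00363, adjusted p = 0.934), and 25 in acute lungs with a median of 0.039. In the citric acid cycle 9 of 15 lay above control in fractionated lungs and 3 of 15 in acute lungs, with medians of 0.02 and -0.04. Idh3a had the smallest p of these in fractionated lungs (0.13, SE 0.088). Pdha1, a subunit of pyruvate dehydrogenase, had -0.081 (SE 0.065) in fractionated lungs and -0.11 (SE 0.064) in acute lungs. For electron carriers and their partners the counts were 10 of 13 and 5 of 13, for coenzyme Q synthesis 6 of 9 and 7 of 9, and for the response to low oxygen 5 of 9 and 3 of 9, fractionated lungs first. Egln3, an oxygen-sensing hydroxylase, differed by 0.59 (SE 0.32, unadjusted p = 0.0743) in fractionated lungs and by 0.27 (SE 0.2) without replicate 13. That lung had the highest level of all 42 for the regulators (0.73), the assembly factors (0.21), the carriers (0.4) and the response to low oxygen (0.74). Without it the fractionated medians were 0.04 for the regulators, with 9 of 12 above control, 0.056 for the assembly factors and -0.012 for the response to low oxygen, and Tfb1m had an unadjusted p of 0.0683.

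Different probes of a gene did not always give the same answer. Of the 23 members with several tested probes, all probes had the same direction in 18 for fractionated against control lungs and in 10 for acute against control lungs. The probes of Ndufb8 correlated at -0.365 across mice, and gave 0.11 and -0.018 for fractionated minus control.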

How the data were processed

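Per the labels' protocols, whole left lungs were flash frozen, RNA was extracted and biotinylated cRNA was hybridised to Illumina BeadChips, 1 array per mouse. The authors' table gives a mean signal intensity per probe on a linear scale with no normalization, and a deposited detection p-value, per the file headers. The authors' value table holds log2 values, normalized to a common median of 3.96, with 1 empty column, and served as an alternative; the labels do not record how its background was treated.

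Signals were background corrected with neqc (limma 3.58.1, R 4.3.3; background inferred from detection p-values, offset 16), quantile normalized and taken to log2. Probes with detection p under 0.01 on at least 13 arrays entered a single limma fit of the 42 arrays on group plus sex, with two-sided p-values adjusted by Benjamini-Hochberg over 17927 probes, and called under 0.05. The fit was tested on simulated data. The number of arrays limits the precision, as does the variance between slides, which this fit leaves in its estimate of spread. Groups and sex came from the labels and slides from the array titles. Probe symbols came from the platform annotation. Named members were the 2 of smallest p per complex and comparison, the isoform pairs, the Sdh genes, the X-linked genes, and those of highest and lowest SD; Ndufb4, Ndufc1, Ndufa13, Ndufs5-ps, Ndufb8 and members named for slide or coupling were added after their values were seen. Promoter letters, members and gene lists were chosen with earlier results of these data known. Alternatives were other normalizations, the authors' table, other filters, slide as a term, sex left out, fractionated replicate 13 left out, and averaged probes. Genes that no probe symbol matched were not analysed here.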

Additional observations from a re-analysis of the deposited data

How the results depend on the processing

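Alternatives were other normalizations, the authors' table, other filters, slide or sex handling, leaving out fractionated replicate 13, and averaged probes. The authors' table has no values for replicate 13, so a change there cannot be told apart from leaving out that lung. In the comparisons between groups no member was called under any of them. The number of members with an unadjusted p under 0.05 was 0 in all 3 under median scaling. With slide as a term it was 12 in fractionated against control, 5 in acute against control and 7 in fractionated against acute lungs, and 6 in acute against control lungs with replicate 13 also left out. In acute against control it was 0 with no filter on dim probes and 0 without sex. In the authors' table it was 3 in fractionated against control and 0 in fractionated against acute lungs, and that last count was 2 with no filter. Without replicate 13 the counts were 3 in fractionated against control and 0 in fractionated against acute lungs.

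Between the sexes, 318 probes were called, but 68 under median scaling, 186 with no filter, 197 among probes detected on all arrays, 538 with slide as a term and 868 with slide and without replicate 13. Members called numbered 2 in that last fit, and 0 under plain quantile normalization, median scaling, the authors' table, either filter, or without replicate 13, where Cox7a1 lost its call. Members with an unadjusted p under 0.05 numbered 3 under median scaling, 15 in the authors' table, 15 without replicate 13, and 18 with slide and without it.

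The correlation of Cox6a2 with heart muscle markers lost its call without replicate 13 (0.33) and in the authors' table (0.32), which lacks that lung too. In checks added after seeing the data, it also lost its call within males (0.12) and females (0.47).

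Signs turned under median scaling for Cox6b2 (-0.006) in fractionated against control lungs, for Atp5j2 (0.034), Cox6a2 (0.015), Cox7a2 (0.024), Atp5g2 (0.001), Ndufa4 (0.064) and Sdhb (0.039) in acute against control lungs, and for Sdhd (-0.004) in fractionated against acute lungs. Sdhd in that comparison was -0.014 with slide as a term and -0.043 with slide and without replicate 13, where Sdhb was -0.007 in fractionated against control lungs. Ndufb11 was 0.015 between males and females with probes averaged. The cause was not tested. No paired analysis was possible because replicate numbers were given in accession order and pair no mice by number; slides, 7 of which hold all groups, entered as a term instead. Dim probes such as Cox7b and Atp5k limit what their values show.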
